A study of Homo sapiens with 30 samples.

Results

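FOXA1 mRNA was knocked down in LNCaP cells with an shRNA, and the RNA of those cells was set against that of cells with the vector control. LNCaP is an established human prostate adenocarcinoma line that depends on androgen. The shFoxA1 group had 3 libraries and the pGIPZ control group had 3, all taken 5 days after infection from a line with no other labelled genotype. pGIPZ is a lentiviral vector that carries an shRNA inside a microRNA backbone. Per the protocol, cells were infected with the control or the FOXA1 shRNA together with a control, HA-tagged FOXA1 or an HA-tagged mutant, and the titles of the 6 libraries name no second construct. All genes with at least 1 RPKM (reads scaled by gene length and by the total of the library) in at least 3 of the 6 libraries were kept, which gave 12097 of the 26443 genes with values. The series holds 30 libraries in 10 groups. Of these, 2 further sets are used here for comparison, a second FOXA1 shRNA experiment in the pLKO vector and the shFoxA1 + WT libraries. The shFoxA1 + WT libraries carried the same shRNA together with wild-type FOXA1. Some groups were not compared but entered the estimates of spread. They were shFoxA1 + K295A, with a mutant FOXA1, in the pGIPZ experiment, and shUSP7 and shBUB3 in the pLKO experiment.

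FOXA1 is a forkhead transcription factor that binds its sites in closed chromatin and opens them for other factors. In prostate epithelium it works with HOXB13 and GATA2 at the enhancers of luminal secretory genes. Loss of FOXA1 in prostate cancer lines is known for raising TGF-beta ligands and the mesenchymal factor SNAI2, and FOXA1 has also been described as a brake on the interferon response. Interferon-induced genes carry a promoter element read by STAT and IRF proteins, and TGF-beta acts through SMAD proteins on matrix and ID genes.

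For each gene, the value that has to reach 1 RPKM for 3 libraries to pass is its limiting value. KLF5 and OGFR-AS1 were just inside, with limiting values of 1.0015 and 1.0003 RPKM. OBSL1 and SPATA5 were just outside, at 0.9996 and 0.9993 RPKM. Of the genes kept, 176 reached 1 RPKM in shFoxA1 libraries only and 108 in pGIPZ libraries only. These had to differ to be kept, so they are named or counted beside the counts over gene lists.

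Relative depth was read from the most frequent ratio of low RPKM values between pGIPZ library 1 and each library. It was 1.01 to 1.23 in shFoxA1 libraries and 1 to 1.23 in pGIPZ libraries. Only part of the genes held this ratio, as 399 of the 1811 compared for shFoxA1 library 2. RPKM summed to 273703 to 276550 in shFoxA1 libraries and 279763 to 286378 in pGIPZ libraries, so that the sums did not overlap, and read totals are unknown. Between 11851 and 11953 genes reached 1 RPKM per library, and the lowest correlation across genes between libraries of a group was 0.99 (genes are not independent replicates). Whether the 3 libraries of a group came from separate cultures is not labelled, so the p-values reflect only the spread among these libraries, which may be technical. Markers of a luminal prostate line were high in all 6 libraries, with KLK3 between 1269 and 1444 RPKM, HOXB13 between 105 and 129.9 RPKM and KRT18 between 142 and 165 RPKM. KRT5 reached at most 0.215 RPKM and TP63 at most 0.0253 RPKM. In bulk RNA, fewer cells of a type and less RNA per cell cannot be told apart.

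FOXA1 itself (chromosome 14, 37589552 to 37595249, GRCh38) was at 83.1, 84.0 and 80.4 RPKM in shFoxA1 libraries, against 131, 134 and 129.6 RPKM in pGIPZ libraries. The log2 fold change was -0.67 ± 0.024 (SE; limma adjusted p = 5.9e-10) and the groups did not overlap, but the message stayed well expressed in all 3 shFoxA1 libraries. Here and below, fold changes are log2(RPKM + 1) in shFoxA1 minus pGIPZ, tested with limma and adjusted over all 12097 genes, and values after ± are SE for fold changes and SD for levels (n = 3 libraries per group). The pseudocount of 1 understates the changes of genes near or under 1 RPKM. FOXA2 and FOXA3, the paralogs of FOXA1, were at most 0.0892 RPKM in the 6 libraries. KLK3, the gene of prostate-specific antigen, was at 1276, 1293 and 1269 RPKM in shFoxA1 libraries, against 1444, 1428 and 1435 RPKM in pGIPZ libraries, a small fall of -0.17 ± 0.016 (adjusted p = 3.4e-06).

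At an adjusted p under 0.05, 6170 of the 12097 genes were called, which is 51.0% of those tested. Of these, 3143 were higher in shFoxA1 (26.0% of genes tested) and 3027 were lower (25.0%). Most changes were small. The median absolute log2 fold change of called genes was 0.31, and 5084 of them (82.4%) changed by less than 1.5-fold. Genes called and at least 2-fold changed were 245 higher (2.03%) and 113 lower (0.934%). With a pseudocount of 0.1 in place of 1, they were 363 higher and 215 lower. The 3 shFoxA1 and 3 pGIPZ libraries did not overlap for 6976 genes (57.7%). The median log2 fold change over all genes tested was 0.00, and counts over gene lists are to be read against these shares.

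**Figure D1:**
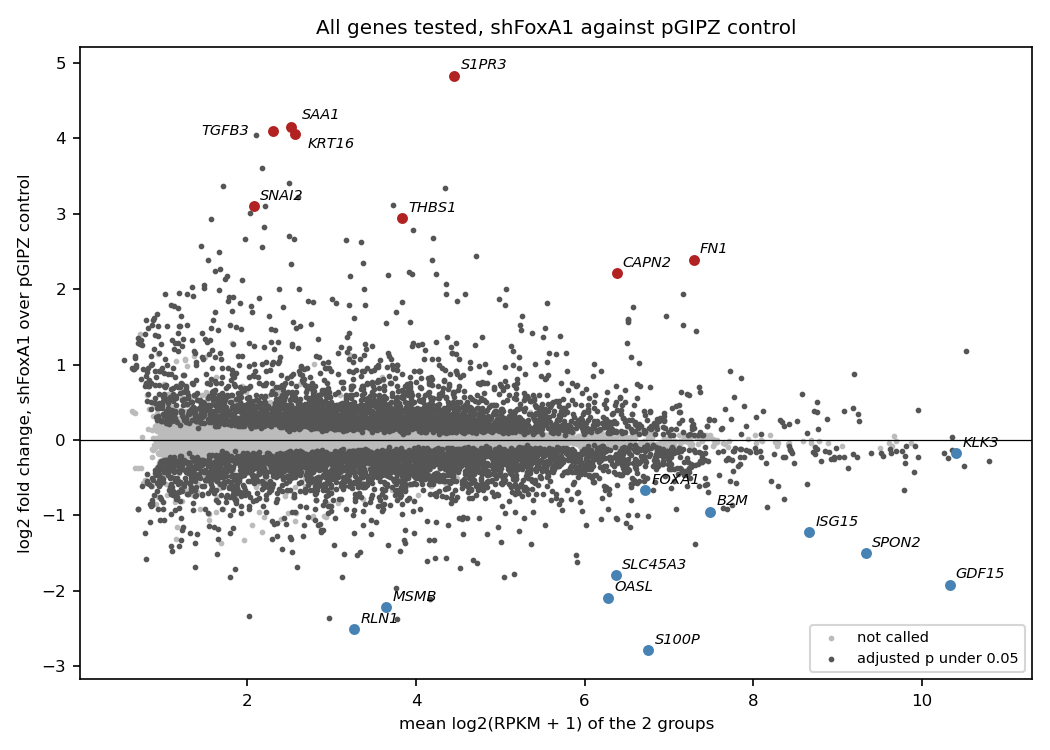
All 12097 genes tested, with the mean log2(RPKM + 1) of the groups on the horizontal axis and the log2 fold change of shFoxA1 over pGIPZ control on the vertical axis. Grey points were not called, dark points had an adjusted p under 0.05, and the coloured points are labelled genes. S1PR3 at 4.83 and S100P at -2.79 mark the extremes, and GDF15 fell at a high level of expression.

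S1PR3 had the highest fold change of the called genes, and several signalling genes were among the 15 highest. S1PR3 (chromosome 9, 88990863 to 89005155), a receptor for sphingosine 1-phosphate, was at 114.3, 115.6 and 117.9 RPKM in shFoxA1 libraries, against 3.28, 3.25 and 2.80 RPKM in pGIPZ libraries (4.83 ± 0.051; adjusted p = 2.8e-14). RGS4, which shortens signalling by G proteins, was at 16.0, 16.8 and 16.8 RPKM in shFoxA1 libraries and at most 0.105 RPKM in pGIPZ libraries (4.05 ± 0.072; adjusted p = 1.5e-12). Both genes were thus close to silent or low in every control library and well expressed in every knockdown library. WNT11, a Wnt ligand, had 8.62, 10.0 and 9.85 RPKM in shFoxA1 libraries, while pGIPZ libraries had 0.0464 RPKM in one and are listed at 0 in the other two (3.37 ± 0.105; adjusted p = 1.6e-10). NPPC, which encodes C-type natriuretic peptide, had 36.6, 39.1 and 37.3 RPKM in shFoxA1 libraries, against 4.85, 2.91 and 2.86 RPKM in pGIPZ libraries (3.12 ± 0.158; adjusted p = 1.3e-08). SGK1, a serine-threonine kinase, was at 17.3, 18.1 and 17.1 RPKM in shFoxA1 libraries, against 1.08, 1.21 and 0.695 RPKM in pGIPZ libraries (3.22 ± 0.092). DAPK1, a kinase of cell death signalling, also rose (3.01 ± 0.066), with 10.5 to 10.7 RPKM in shFoxA1 libraries and 0.373 to 0.484 RPKM in pGIPZ libraries. IRS1, the insulin receptor substrate, was at 5.99, 5.94 and 6.01 RPKM in shFoxA1 libraries, against 0.532, 0.567 and 0.688 RPKM in pGIPZ libraries (2.13 ± 0.079). ERBB2, a receptor tyrosine kinase, fell (-0.80 ± 0.034) and so did LRIG1, an inhibitor of ERBB receptors (-1.25 ± 0.037).

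**Figure D2:**
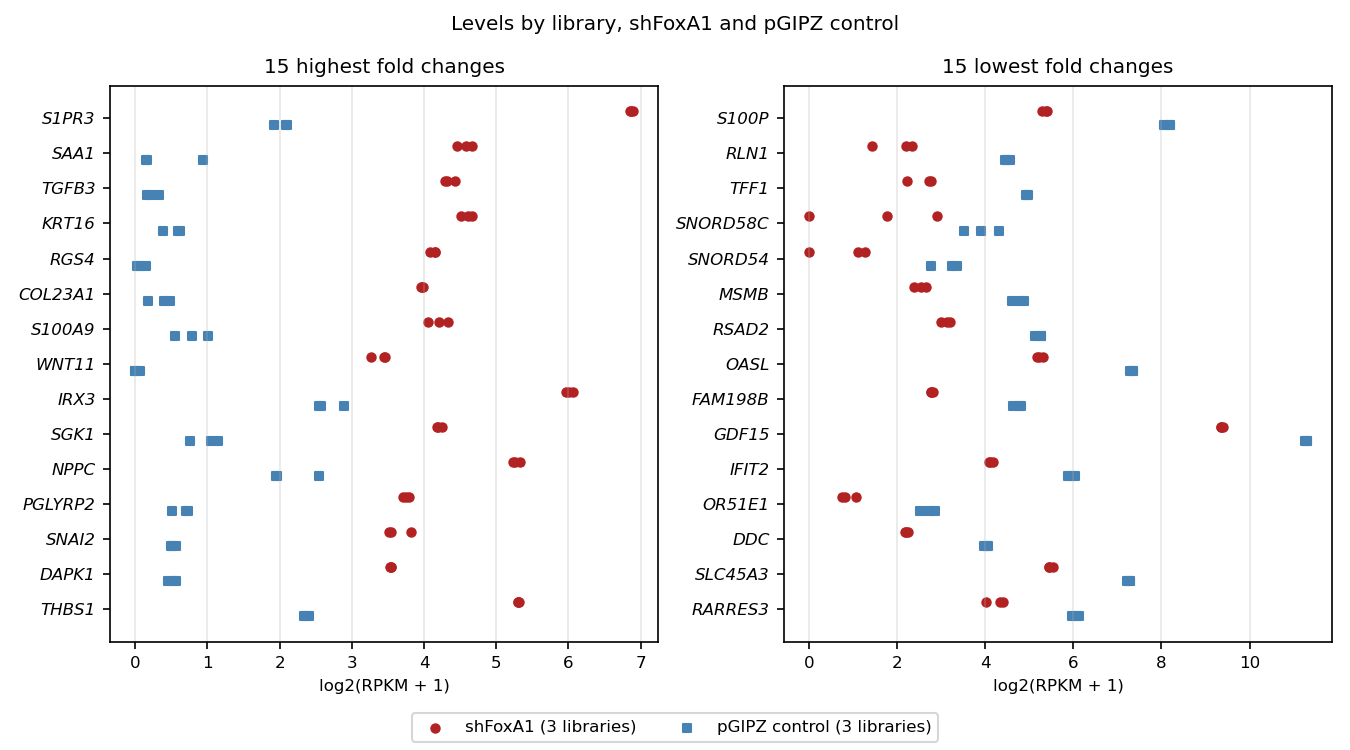
Levels by library, as log2(RPKM + 1), of the 15 genes with the highest and the 15 with the lowest fold change among called genes without overlap. Red circles are the 3 shFoxA1 libraries and blue squares the 3 pGIPZ control libraries. Groups stand apart in every row, and the small nucleolar RNAs SNORD58C and SNORD54 have shFoxA1 libraries that run down to 0.

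TGFB3, SNAI2, THBS1 and FN1 rose in the knockdown. TGFB3, a TGF-beta ligand, was at 20.6, 18.9 and 18.6 RPKM in shFoxA1 libraries, against 0.259, 0.126 and 0.169 RPKM in pGIPZ libraries (4.10 ± 0.079; adjusted p = 2.9e-12). SNAI2 (chromosome 8, 48917598 to 48921429), a repressor of epithelial genes, was at 10.6, 13.1 and 10.4 RPKM in shFoxA1 libraries, against 0.424, 0.415 and 0.475 RPKM in pGIPZ libraries (3.10 ± 0.137; adjusted p = 3.8e-09). THBS1 (chromosome 15, 39581079 to 39599466), a matrix glycoprotein that activates latent TGF-beta, was at 38.6, 38.7 and 38.3 RPKM in shFoxA1 libraries, against 4.28, 4.06 and 4.16 RPKM in pGIPZ libraries (2.94 ± 0.036). These 3 genes were among the 15 highest, which were taken only from called genes without overlap. FN1, the gene of fibronectin, was already expressed in the controls and had 355, 361 and 361 RPKM in shFoxA1 libraries, against 67.1, 69.2 and 66.1 RPKM in pGIPZ libraries (2.39 ± 0.029; adjusted p = 7.3e-14). ID2, an inhibitor of basic helix-loop-helix factors that stands in the TGF-beta list, was at 33.1, 32.7 and 29.2 RPKM in shFoxA1 libraries, against 5.18, 6.57 and 6.25 RPKM in pGIPZ libraries (2.23 ± 0.071). Activity of the TGF-beta pathway was not tested.

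Of 43 listed TGF-beta ligands, receptors and targets, 31 were tested, 14 rose and 5 fell, with a median of 0.13. TGFB3 and LTBP2 among them reached 1 RPKM in 1 of the groups only. Of 32 listed mesenchymal genes only 10 were expressed enough to test, of which 8 rose and 2 fell, and SNAI2 and MYL9 reached 1 RPKM in shFoxA1 libraries only. The median over all 32 mesenchymal genes in the table was 0.03. CDH2 (N-cadherin) and ZEB1, which mark mesenchymal cells, were near 0, at most 0.0327 and 0.250 RPKM in the 6 libraries. TPM1, a tropomyosin of stress fibres, rose as well, with 66.3 to 67.4 RPKM in shFoxA1 libraries against 19.7 to 21.7 RPKM in pGIPZ libraries (1.65 ± 0.034). Collagens, laminins, integrins and thrombospondins went both ways, with 10 higher and 10 lower of 27 tested (44 listed, of which 5 tested genes reached 1 RPKM in 1 group only). With a filter of 5 RPKM in place of 1 RPKM, 6 members of that list were called lower. COL23A1, a transmembrane collagen, was at 14.7, 14.6 and 14.8 RPKM in shFoxA1 libraries, against 0.321, 0.404 and 0.136 RPKM in pGIPZ libraries (3.61 ± 0.096). LAMB1 and LAMB3, laminin chains of basement membrane, rose by 2.17 ± 0.085 and 1.83 ± 0.084 on the log2 scale.

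Epithelial junction genes were mostly tested (38 of 40), of which 8 rose and 19 fell, with a median of -0.15. EPCAM, an epithelial adhesion molecule, had 28.3, 31.3 and 31.3 RPKM in shFoxA1 libraries, against 71.5, 65.5 and 65.0 RPKM in pGIPZ libraries (-1.13 ± 0.045; adjusted p = 1.5e-09). The tight junction genes CLDN4 (-0.78 ± 0.024) and CLDN3 (-0.67 ± 0.041) fell as well, while LLGL2, a polarity protein, rose (0.81 ± 0.032). CDH1, the gene of E-cadherin, was at 153, 154 and 147 RPKM in shFoxA1 libraries, against 156, 154 and 159 RPKM in pGIPZ libraries (-0.05 ± 0.026; adjusted p = 0.176). It is named because it defines the class, after its values were seen, and its groups overlapped.

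Keratins of basal or activated epithelium and acute-phase genes that were low in the controls rose. KRT16, a keratin of activated keratinocytes, was at 24.4, 23.4 and 21.9 RPKM in shFoxA1 libraries, against 0.312, 0.509 and 0.535 RPKM in pGIPZ libraries (4.06 ± 0.095; adjusted p = 1.2e-11). KRT6B was at 8.62, 9.34 and 8.71 RPKM in shFoxA1 libraries, against 0.588, 0.479 and 0.622 RPKM in pGIPZ libraries (2.66 ± 0.087). KRT16 and KRT6B have near-identical relatives, and how shared reads were divided is not given in the sources used here. SFN, the gene of 14-3-3 sigma, rose (1.22 ± 0.067). Of 18 basal epithelial markers 9 were tested, 7 rose and 0 fell by limma at an adjusted p under 0.05 (0 also at an unadjusted p under 0.05), and KRT6A, KRT6B and COL17A1 reached 1 RPKM in shFoxA1 libraries only. The summed level of all 18 was 58.7 to 62.0 RPKM in shFoxA1 libraries and 21.6 to 21.8 RPKM in pGIPZ libraries. The defining basal markers KRT5 and TP63 stayed under 1 RPKM in all 6 libraries, while KRT14 was at 6.77, 7.38 and 5.26 RPKM in shFoxA1 libraries, against 2.62, 2.45 and 2.65 RPKM in pGIPZ libraries. The part of other cells in these sums was not tested.

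SAA1, an acute-phase protein, was at 20.9, 22.9 and 24.4 RPKM in shFoxA1 libraries, against 0.924, 0.108 and 0.123 RPKM in pGIPZ libraries (4.15 ± 0.204; adjusted p = 9.6e-09). Reads of SAA1 and its near-identical neighbour SAA2 could have been split or shared, and SAA2 rose as well (1.67 ± 0.114). S100A9, a calcium-binding protein of neutrophils and inflamed epithelium, was at 19.1, 15.6 and 17.4 RPKM in shFoxA1 libraries, against 0.465, 1.01 and 0.724 RPKM in pGIPZ libraries (3.41 ± 0.203). LCN2, an iron-binding protein induced through NF-kB, was at 33.0, 31.1 and 31.7 RPKM in shFoxA1 libraries, against 6.52, 5.14 and 7.01 RPKM in pGIPZ libraries (2.20 ± 0.108). PGLYRP2, which cleaves bacterial peptidoglycan, rose (3.10 ± 0.114), and so did NFKBIZ, a nuclear regulator of NF-kB targets (1.87 ± 0.064). Of 39 inflammatory and NF-kB genes, 23 were tested, 12 rose and 7 fell, with a median of 0.13, and CCL2, SAA1 and SAA2 reached 1 RPKM in shFoxA1 libraries only.

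IRX3, MAF and FOSL2 were among the transcription factors with large rises. IRX3 (chromosome 16, 54283304 to 54286787), a homeobox factor, was at 63.2, 65.6 and 61.6 RPKM in shFoxA1 libraries, against 4.96, 6.44 and 4.85 RPKM in pGIPZ libraries (3.34 ± 0.081; adjusted p = 1.6e-11). MAF, a basic leucine zipper factor, was at 45.9, 46.4 and 44.0 RPKM in shFoxA1 libraries, against 6.93, 6.76 and 5.22 RPKM in pGIPZ libraries (2.68 ± 0.080). FOSL2, a FOS-family partner in AP-1, was at 60.6, 61.4 and 57.9 RPKM in shFoxA1 libraries, against 10.1, 10.5 and 10.0 RPKM in pGIPZ libraries (2.44 ± 0.040; adjusted p = 8.0e-13). The groups did not overlap for any of these 3 factors, which for IRX3 was a condition of its choice. MAF and FOSL2 were chosen for large changes. JUN, the other arm of AP-1, rose by a smaller amount (1.14 ± 0.040), with 71.2 to 75.6 RPKM in shFoxA1 libraries and 31.6 to 33.9 RPKM in pGIPZ libraries. BTG1, an antiproliferative gene, rose to 157, 159.6 and 158 RPKM in shFoxA1 libraries, against 52.4, 50.6 and 51.1 RPKM in pGIPZ libraries (1.60 ± 0.023). Of 33 AP-1 and immediate early genes, 24 were tested, 13 rose and 4 fell, with a median of 0.22. HIF1A, the oxygen-regulated factor, rose (1.36 ± 0.057), while the 37 tested genes of the hypoxia and glycolysis list (41 listed) held 12 that rose and 8 that fell, with a median of 0.02 and EPAS1 reaching 1 RPKM in 1 group only. NDRG1, a stress and androgen-responsive gene of that list, was at 85.6, 87.9 and 87.3 RPKM in shFoxA1 libraries, against 24.6, 23.6 and 24.1 RPKM in pGIPZ libraries (1.81 ± 0.032).

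S100P, RLN1 and TFF1 had the 3 lowest fold changes of the called genes without overlap. S100P (chromosome 4, 6693878 to 6697170), a calcium-binding protein, was at 37.9, 40.8 and 41.2 RPKM in shFoxA1 libraries, against 264, 294 and 291 RPKM in pGIPZ libraries (-2.79 ± 0.065; adjusted p = 1.2e-11). RLN1, the hormone relaxin H1, was at 4.03, 3.62 and 1.68 RPKM in shFoxA1 libraries, against 21.4, 20.8 and 22.7 RPKM in pGIPZ libraries (-2.51 ± 0.178; adjusted p = 2.6e-07). Its reads could be shared with the close paralog RLN2. TFF1, a secreted trefoil peptide, was at 3.70, 5.62 and 5.77 RPKM in shFoxA1 libraries, against 29.6, 29.8 and 30.2 RPKM in pGIPZ libraries (-2.38 ± 0.117). MSMB, a main protein of seminal plasma, was at 4.18, 5.30 and 4.85 RPKM in shFoxA1 libraries, against 23.3, 26.3 and 28.4 RPKM in pGIPZ libraries (-2.22 ± 0.115). Each of these was taken from called genes without overlap, so the separation of their libraries was a condition of the choice. GDF15 (chromosome 19, 18386158 to 18389176), a secreted stress cytokine of the TGF-beta superfamily, was among the most abundant messages of the line and had 652, 669 and 657 RPKM in shFoxA1 libraries, against 2534, 2457 and 2523 RPKM in pGIPZ libraries (-1.92 ± 0.017; adjusted p = 6.5e-15). SPON2, a secreted matrix protein named after its value was seen, averaged 383 RPKM in shFoxA1 libraries and 1082 RPKM in pGIPZ libraries (log2 fold change -1.50).

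SLC45A3 (chromosome 1, 205657851 to 205680509), the prostate membrane protein prostein, was at 42.3, 42.7 and 45.5 RPKM in shFoxA1 libraries, against 154, 148 and 156 RPKM in pGIPZ libraries (-1.79 ± 0.032; adjusted p = 1.8e-12). DDC, which makes dopamine and serotonin, was at 3.62, 3.54 and 3.71 RPKM in shFoxA1 libraries, against 14.8, 15.4 and 15.8 RPKM in pGIPZ libraries (-1.82 ± 0.043). ACPP, the gene of prostatic acid phosphatase, was at 11.7, 11.2 and 12.1 RPKM in shFoxA1 libraries, against 41.1, 39.2 and 40.5 RPKM in pGIPZ libraries (-1.70 ± 0.061). SLC45A3 and ACPP are luminal prostate products. The groups did not overlap for any of the 3, which for SLC45A3 and DDC was a condition of their choice. OR51E1, an olfactory receptor expressed in prostate (-1.82 ± 0.142), FAM198B, a Golgi protein (-1.96 ± 0.047), and RARRES3, a retinoid-induced growth suppressor (-1.78 ± 0.097), complete the protein-coding genes among the 15 lowest outside the interferon response. The small nucleolar RNAs SNORD58C (-2.36 ± 0.549; adjusted p = 0.00352) and SNORD54 (-2.33 ± 0.622; adjusted p = 0.008) lie within introns of ribosomal protein genes, so their reads could come from the host transcripts. Each is listed at 0 in 1 shFoxA1 library, and their errors are the widest of the 30 genes.

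Luminal prostate genes as a group went both ways. Of 37 listed, 31 were tested, 11 rose and 18 fell, with a median of -0.27 and NAALAD2 reaching 1 RPKM in 1 group only. Among the markers of the luminal line, TMPRSS2, an androgen-regulated protease, was at 146, 146 and 143 RPKM in shFoxA1 libraries, against 269.5, 270.4 and 272 RPKM in pGIPZ libraries (-0.90 ± 0.020; adjusted p = 7.8e-12). FOLH1, the prostate-specific membrane antigen, was at 155, 161 and 161 RPKM in shFoxA1 libraries, against 294, 287 and 289 RPKM in pGIPZ libraries (-0.86 ± 0.026). AGR2, a folding enzyme of secretory cells, fell more (-1.59 ± 0.074). In contrast the kallikrein KLK2 (0.23 ± 0.030), the homeobox factor HOXB13 (0.27 ± 0.023) and the luminal keratin KRT8 (0.63 ± 0.035) rose.

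Genes known to be induced by androgen showed the same division. Of 50 listed, 46 were tested, 23 rose and 21 fell, with a median of 0.08, so that most members changed but with no common direction. FKBP5, a chaperone of steroid receptors, was at 40.8, 41.3 and 42.4 RPKM in shFoxA1 libraries, against 10.3, 11.3 and 11.2 RPKM in pGIPZ libraries (1.84 ± 0.045; adjusted p = 1.6e-11). SGK1, MAF, FKBP5 and NDRG1 were the 4 members with the largest changes and all 4 rose, whereas SLC45A3 and TMPRSS2 of the same androgen programme fell. The steroid list (34 genes, 15 tested) held 4 that rose and 8 that fell, with HSD17B2 reaching 1 RPKM in shFoxA1 libraries only. RDH11, a retinol and steroid-handling reductase, was at 95.7, 98.3 and 98.2 RPKM in shFoxA1 libraries, against 258, 252 and 256 RPKM in pGIPZ libraries (-1.38 ± 0.019; adjusted p = 2.2e-13). HSD11B2, which inactivates cortisol, rose (0.53 ± 0.047), and HSD17B2, which oxidises testosterone, rose as well (0.95 ± 0.158), with 1.06 to 1.67 RPKM in shFoxA1 libraries and at most 0.561 RPKM in pGIPZ libraries.

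UGT2B enzymes attach glucuronic acid to androgens and so inactivate them. Of 7 listed, 4 were tested, 3 fell and 0 rose by limma (0 also at an unadjusted p under 0.05). UGT2B17 was at 5.86, 5.21 and 5.60 RPKM in shFoxA1 libraries, against 11.9, 11.7 and 10.7 RPKM in pGIPZ libraries (-0.92 ± 0.050). The log2 fold change was -0.61 ± 0.051 for UGT2B11 and -0.46 ± 0.052 for UGT2B15. These genes are close paralogs, so the share of reads given to each is uncertain.

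Forkhead proteins bind a short word that FOXA1 shares with its relatives, and the promoters of some members hold it. The letters TGTTTAC or TATTTAC were searched on both strands in the 250 bases before each RefSeq start listed for a gene (GRCh38.p14). A gene can have several starts, and the DDC and UGT2B11 windows lie before a start inside the gene's full span. The windows below show UGT2B15, UGT2B11, DDC, ACPP and GDF15, which fell, and ID2, which rose, with the matched letters in capitals and read along the gene's strand. They were chosen after the values were seen.
UGT2B15 (chr4:68670814-68670850, minus strand): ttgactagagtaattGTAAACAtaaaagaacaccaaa
UGT2B15 (chr4:68670714-68670750, minus strand): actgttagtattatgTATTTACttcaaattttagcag
UGT2B11 (chr4:69214877-69214913, minus strand): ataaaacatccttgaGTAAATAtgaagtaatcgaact
UGT2B11 (chr4:69214809-69214845, minus strand): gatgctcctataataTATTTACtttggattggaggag
DDC (chr7:50561140-50561176, minus strand): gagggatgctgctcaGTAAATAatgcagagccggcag
ACPP (chr3:132317280-132317316, plus strand): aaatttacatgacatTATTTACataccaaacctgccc
GDF15 (chr19:18386047-18386083, plus strand): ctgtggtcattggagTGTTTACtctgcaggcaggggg
ID2 (chr2:8681824-8681860, plus strand): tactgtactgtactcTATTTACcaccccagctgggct

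UGT2B15 and UGT2B11 each held the word in both orientations, while DDC, ACPP, GDF15 and ID2 each held 1 match. The word was in 1851 of the 35116 promoters of the table (5.27%). Among genes at least 2-fold lower, 5 of the 67 with a promoter held it (7.46%), and among those at least 2-fold higher 13 of 182 did (7.14%). Only 59.3% of the 113 lower and 74.3% of the 245 higher genes had a promoter in the table, so a comparison of these shares with all promoters is void. A gene counted if any of its promoters held the word, whereas the share over all promoters counted each promoter. A match is a description of the letters and not a binding site.

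Interferon-induced genes fell together. Of 45 listed, 41 were tested, 34 fell and 0 rose by limma at an adjusted p under 0.05 (at an unadjusted p under 0.05, 35 fell and 0 rose), against a background of 25.0% called lower. The median log2 fold change was -0.57 over those tested and -0.48 over all 45, beside 0.00 over all genes tested. None of the 41 owed its test to 1 group alone. RSAD2, the antiviral enzyme viperin, was at 7.70, 8.24 and 6.97 RPKM in shFoxA1 libraries, against 37.5, 37.4 and 34.2 RPKM in pGIPZ libraries (-2.11 ± 0.075; adjusted p = 4.9e-10). OASL, a relative of the RNA-sensing oligoadenylate synthetases, was at 38.5, 36.4 and 35.3 RPKM in shFoxA1 libraries, against 154, 162 and 162 RPKM in pGIPZ libraries (-2.09 ± 0.039; adjusted p = 2.2e-12). IFIT2 was at 16.1, 16.3 and 17.2 RPKM in shFoxA1 libraries, against 64.7, 60.5 and 58.1 RPKM in pGIPZ libraries (-1.82 ± 0.065). IFIT proteins bind foreign RNA, and IFIT3 (-1.56 ± 0.048) and IFIT1 (-1.24 ± 0.042) fell beside IFIT2. ISG15, a ubiquitin-like modifier and the most abundant of those given here, was at 254, 273 and 269 RPKM in shFoxA1 libraries, against 658, 593 and 605 RPKM in pGIPZ libraries (-1.22 ± 0.045).

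DDX58 and CXCL10 fell too, while STAT2 and IRF9 changed less. DDX58, the RNA sensor RIG-I, was at 4.97, 5.11 and 5.63 RPKM in shFoxA1 libraries, against 13.9, 14.4 and 12.7 RPKM in pGIPZ libraries (-1.23 ± 0.059). CXCL10, a chemokine induced by interferon, was at 9.04, 8.85 and 9.27 RPKM in shFoxA1 libraries, against 30.3, 28.8 and 30.2 RPKM in pGIPZ libraries (-1.61 ± 0.056). STAT2 (-0.16 ± 0.053) and IRF9 (-0.37 ± 0.081), which belong to the factor that reads the interferon element, each fell by less than 1.5-fold. MX1, an antiviral GTPase, was near 1 RPKM in all 6 libraries and was not called (-0.00 ± 0.105; adjusted p = 0.974). CXCL10 stands in the inflammatory list. The genes of this paragraph and ISG15, IFIT1, BST2 and HERC5 were picked from the lists for their roles after their values were seen.

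The interferon element holds pairs of GAAA. The word GAAANNGAAA was searched on both strands in the same 250 bases before each start, and it is shown for members that fell, with matches in capitals. The RSAD2 window lies before a start inside the gene's full span. Runs in which matches overlap are capitalised throughout.
ISG15 (chr1:1013369-1013414, plus strand): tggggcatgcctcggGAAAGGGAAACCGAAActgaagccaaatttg
RSAD2 (chr2:6877617-6877656, plus strand): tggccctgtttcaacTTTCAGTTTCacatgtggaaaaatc
IFIT1 (chr10:89392492-89392544, plus strand): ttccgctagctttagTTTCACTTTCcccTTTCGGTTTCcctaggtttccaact
BST2 (chr19:17405730-17405775, minus strand): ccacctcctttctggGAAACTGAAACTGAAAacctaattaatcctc
HERC5 (chr4:88456979-88457024, plus strand): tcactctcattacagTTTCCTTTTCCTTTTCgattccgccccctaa
B2M (chr15:44711358-44711403, plus strand): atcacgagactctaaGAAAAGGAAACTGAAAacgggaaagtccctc

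ISG15, IFIT1, BST2, HERC5 and B2M each show 2 matches in these windows, overlapping in all but IFIT1, and RSAD2 shows 1. The word was in 22 of the 34 listed interferon genes that had a promoter in the table, and in 1061 of all 35116 promoters (3.02%). Because only 75.6% of the list had a promoter there, the comparison of the 2 shares is void. Here too a gene counted if any of its promoters held the word, whereas the share over all promoters counted each promoter. BST2, the membrane tether that holds virus particles at the cell, was at 6.73, 7.42 and 8.10 RPKM in shFoxA1 libraries, against 22.9, 20.9 and 23.2 RPKM in pGIPZ libraries (-1.47 ± 0.152). HERC5, the ligase that attaches ISG15, fell too (-1.06 ± 0.083).

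MHC class I genes present peptides to T cells and are themselves raised by interferon. Of 19 listed, 14 were tested, 12 fell and 0 rose by limma (0 also at an unadjusted p under 0.05), with a median of -0.54. B2M, the light chain of every class I molecule, was at 127, 127 and 129.5 RPKM in shFoxA1 libraries, against 266, 243 and 238 RPKM in pGIPZ libraries (-0.95 ± 0.036; adjusted p = 9.8e-10). The heavy chain HLA-B (-0.79 ± 0.040) and the chaperone CALR (-0.66 ± 0.020) fell as well. HLA genes are alike and highly variable in sequence, so the division of reads among them is uncertain. The immune marker PTPRC was at 0 in all 6 libraries.

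**Figure D3:**
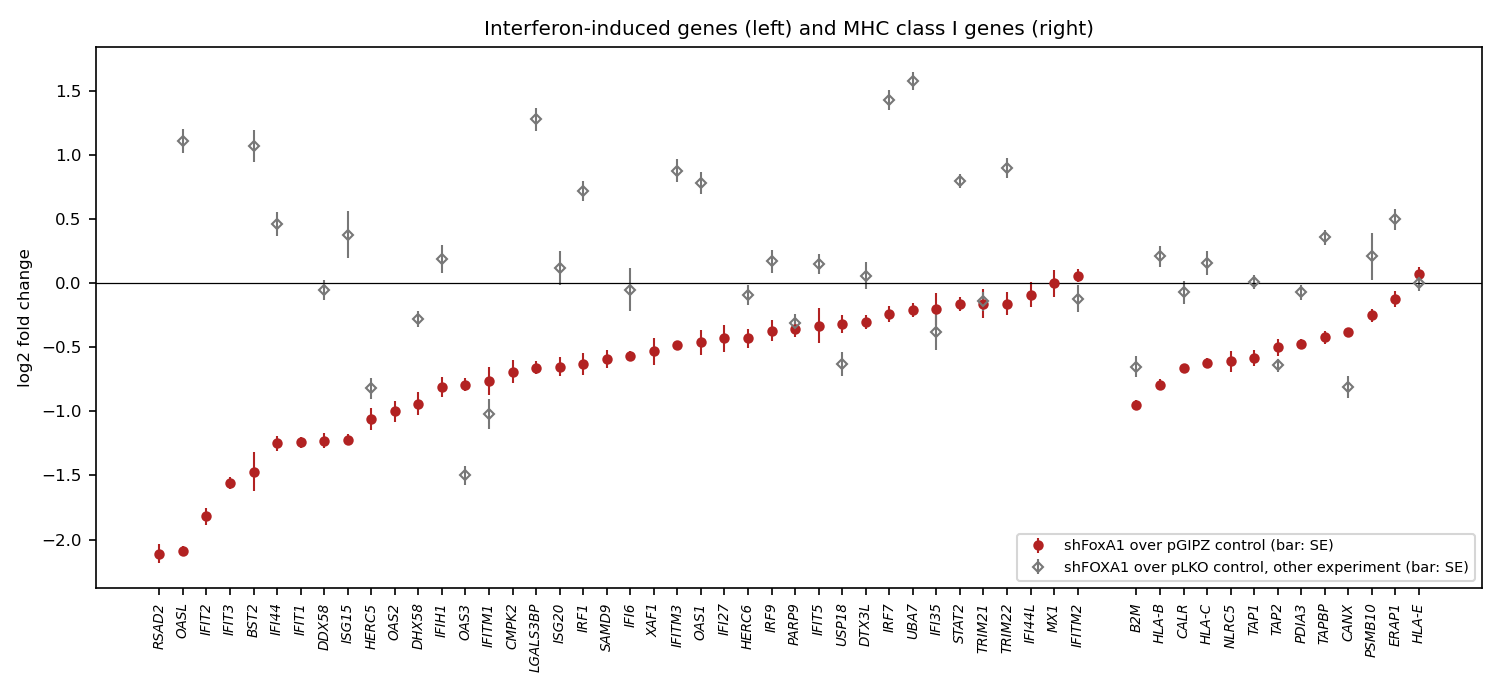
Log2 fold changes of tested interferon-induced genes and, to the right, of genes of the MHC class I list, for shFoxA1 over pGIPZ control (red circles) and for shFOXA1 over pLKO control in the other experiment (grey diamonds), with bars for the SE. Red circles lie under 0 except for MX1 at 0 and IFITM2 and HLA-E just above it, whereas grey diamonds lie on both sides of 0, as for OASL at 1.11 and HERC5 at -0.82. OASL averaged only 0.468 FPKM in pLKO controls, and genes not tested in that experiment have no diamond.

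Partners of FOXA1 mostly rose. Of 43 listed FOXA1 family members and coregulators, 37 were tested, 27 rose and 4 fell, against a background of 26.0% called higher, with a median of 0.26 and FOXD1 reaching 1 RPKM in 1 group only. TLE1, a corepressor that FOXA1 binds, was at 47.1, 44.5 and 45.1 RPKM in shFoxA1 libraries, against 12.1, 10.7 and 10.8 RPKM in pGIPZ libraries (1.94 ± 0.047; adjusted p = 1.6e-11). GRHL2, an epithelial factor that works with FOXA1, was at 74.8, 76.5 and 76.7 RPKM in shFoxA1 libraries, against 25.7, 27.6 and 26.8 RPKM in pGIPZ libraries (1.48 ± 0.031). NCOR1, a corepressor of nuclear receptors, was at 31.9, 32.7 and 31.8 RPKM in shFoxA1 libraries, against 15.2, 14.8 and 14.2 RPKM in pGIPZ libraries (1.07 ± 0.037). FOXO3, another forkhead factor, rose (1.19 ± 0.042). Of the members that fell, FOXP1, a forkhead repressor, had 2.02, 1.96 and 2.48 RPKM in shFoxA1 libraries, against 4.01, 3.98 and 4.33 RPKM in pGIPZ libraries (-0.70 ± 0.070), and was named after its value was seen. In the polycomb list, 9 of 31 tested genes rose and 4 fell (33 listed). RBBP7, a histone-binding subunit shared with other complexes, had the largest change there (1.38 ± 0.036), with 81.9 to 85.1 RPKM in shFoxA1 libraries and 30.1 to 33.1 RPKM in pGIPZ libraries.

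Most mitosis genes fell by small amounts. Of 56 mitosis and spindle checkpoint genes, 55 were tested, 42 fell and 1 rose, with a median of -0.28 and no member changed 2-fold. CCNB1, the mitotic cyclin, was at 26.3, 28.4 and 27.6 RPKM in shFoxA1 libraries, against 39.1, 38.1 and 36.8 RPKM in pGIPZ libraries (-0.46 ± 0.036; adjusted p = 6.5e-07). BIRC5, which serves chromosome passenger function, was at 20.5, 19.3 and 19.7 RPKM in shFoxA1 libraries, against 27.6, 27.8 and 27.7 RPKM in pGIPZ libraries (-0.47 ± 0.030). PTTG1 (-0.54 ± 0.091), the securin, had the largest fall of the list, and the kinase BUB1 followed (-0.50 ± 0.066). Of 56 DNA replication genes, all tested, 24 fell and 3 rose, with a median of -0.14. Replication-dependent histones were 12 higher and 1 lower of 26 tested (34 listed), and the 1 lower became 0 without shFoxA1 library 1, pGIPZ library 2 or pGIPZ library 3. It also became 0 with a pseudocount of 0.1, with no filter, with a filter of 5 and with no intensity trend. The same held for a replicate block with or without median-ratio scaling. The largest rises were those of HIST2H2BE (0.85 ± 0.040) and HIST1H2AC (0.85 ± 0.079). Histone genes are near-identical copies, so their reads are uncertain. The CDK inhibitor CDKN2B rose (0.84 ± 0.073) with 7.72 to 8.21 RPKM in shFoxA1 libraries and 3.75 to 4.24 RPKM in pGIPZ libraries, and the list of cyclins and CDK inhibitors had 11 higher and 4 lower of 33 tested, with CDKN1C reaching 1 RPKM in 1 group only. The 4 lower became 2 without pGIPZ library 3 and in a fit of the 6 libraries alone, and 7 with median-ratio scaling.

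p53 targets were mostly lower, with 23 that fell and 6 that rose of 39 tested (40 listed) and a median of -0.22. GDF15 was the largest change among them. PMAIP1, the death-promoting protein NOXA, was at 6.79, 6.84 and 6.19 RPKM in shFoxA1 libraries, against 12.5, 11.3 and 10.5 RPKM in pGIPZ libraries (-0.71 ± 0.075). CDKN1A, the p21 inhibitor, was at 161, 156 and 153 RPKM in shFoxA1 libraries, against 186, 190.1 and 188 RPKM in pGIPZ libraries (-0.26 ± 0.024), and is named as the best known target of p53 after its value was seen. PLK2, a kinase, was the exception among the largest changes and rose (0.92 ± 0.065).

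Endoplasmic reticulum folding and cholesterol genes were more often lower than higher. Of 40 endoplasmic reticulum folding genes, 39 were tested, 30 fell and 5 rose, with a median of -0.29. The 5 that rose became 3 without shFoxA1 library 1, without shFoxA1 library 3, without pGIPZ library 1 and with median-ratio scaling. XBP1, the factor that drives the secretory programme, was at 56.9, 55.3 and 58.2 RPKM in shFoxA1 libraries, against 123, 114 and 114 RPKM in pGIPZ libraries (-1.03 ± 0.035; adjusted p = 3.1e-10). MANF, a folding factor, fell (-0.79 ± 0.040), and so did the protein disulfide isomerase PDIA5 (-0.77 ± 0.045). Of 37 cholesterol genes, 35 were tested, 26 fell and 4 rose, with a median of -0.27. SCARB1, the receptor that takes up cholesterol from HDL, was at 45.2, 48.3 and 46.1 RPKM in shFoxA1 libraries, against 68.5, 69.2 and 72.7 RPKM in pGIPZ libraries (-0.58 ± 0.035; adjusted p = 6.2e-08). HSD17B7, an enzyme of sterol and steroid synthesis, fell (-0.54 ± 0.078).

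The 4 largest changes among fatty acid genes went both ways. SCD, the desaturase, had 74.8, 75.3 and 75.6 RPKM in shFoxA1 libraries, against 156, 152 and 150.0 RPKM in pGIPZ libraries (-1.01 ± 0.022). ACSL3, which activates fatty acids, also fell (-1.05 ± 0.022). ABCD3, the peroxisomal importer (0.96 ± 0.039), and ACADM, an enzyme of mitochondrial oxidation (0.86 ± 0.061), rose. Over the list of 43, 39 were tested, 14 rose and 15 fell, with PPARG reaching 1 RPKM in 1 group only. In the ATF4, serine and tRNA synthetase list (42 genes, 40 tested) 21 fell and 9 rose. SLC1A5, the glutamine transporter, fell (-0.95 ± 0.043), while SHMT1, a serine hydroxymethyltransferase of the cytosol, was at 51.6, 53.6 and 53.4 RPKM in shFoxA1 libraries, against 21.4, 21.8 and 21.8 RPKM in pGIPZ libraries (1.25 ± 0.046).

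Most ribosomal protein genes fell slightly. Of 70 cytosolic ribosomal protein genes, all tested, 51 fell and 0 rose by limma (at an unadjusted p under 0.05, 53 fell and 0 rose), with a median of -0.17. RPS21 was at 844, 854 and 784 RPKM in shFoxA1 libraries, against 1124, 1113 and 1085 RPKM in pGIPZ libraries (-0.42 ± 0.038). Ribosomal protein genes have many processed pseudogenes, and the call for RPS10 (-0.47 ± 0.154; adjusted p = 0.0242) was lost when shFoxA1 library 2 was left out (-0.31; adjusted p = 0.102). Of 54 nuclear-encoded respiratory chain genes, all tested, 27 fell, 1 rose and 26 were not called, with a median of -0.13. The 1 that rose became 0 without shFoxA1 library 1, shFoxA1 library 3, pGIPZ library 2 or pGIPZ library 3. Heat shock genes went the other way, with 21 higher and 2 lower of 31 tested (38 listed). CRYAB, a small heat shock protein, was at 11.2, 12.6 and 11.6 RPKM in shFoxA1 libraries, against 1.82, 1.35 and 1.47 RPKM in pGIPZ libraries (2.34 ± 0.182), and HSPB8 rose too (1.49 ± 0.091). Lysosomal genes had 8 higher and 18 lower of 39 tested, and CTSL, the protease cathepsin L, rose to 99.5, 99.6 and 98.8 RPKM in shFoxA1 libraries, against 52.6, 52.6 and 51.3 RPKM in pGIPZ libraries (0.92 ± 0.021). Metallothioneins and zinc transporters had 7 higher and 12 lower of 22 tested, with a median of -0.21. SLC30A4, a zinc exporter of prostate, fell (-0.97 ± 0.039), and the metallothioneins MT1F (0.93 ± 0.129) and MT1X (0.72 ± 0.104) rose. Metallothionein genes are close paralogs, so their reads are uncertain.

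**Figure D4:**
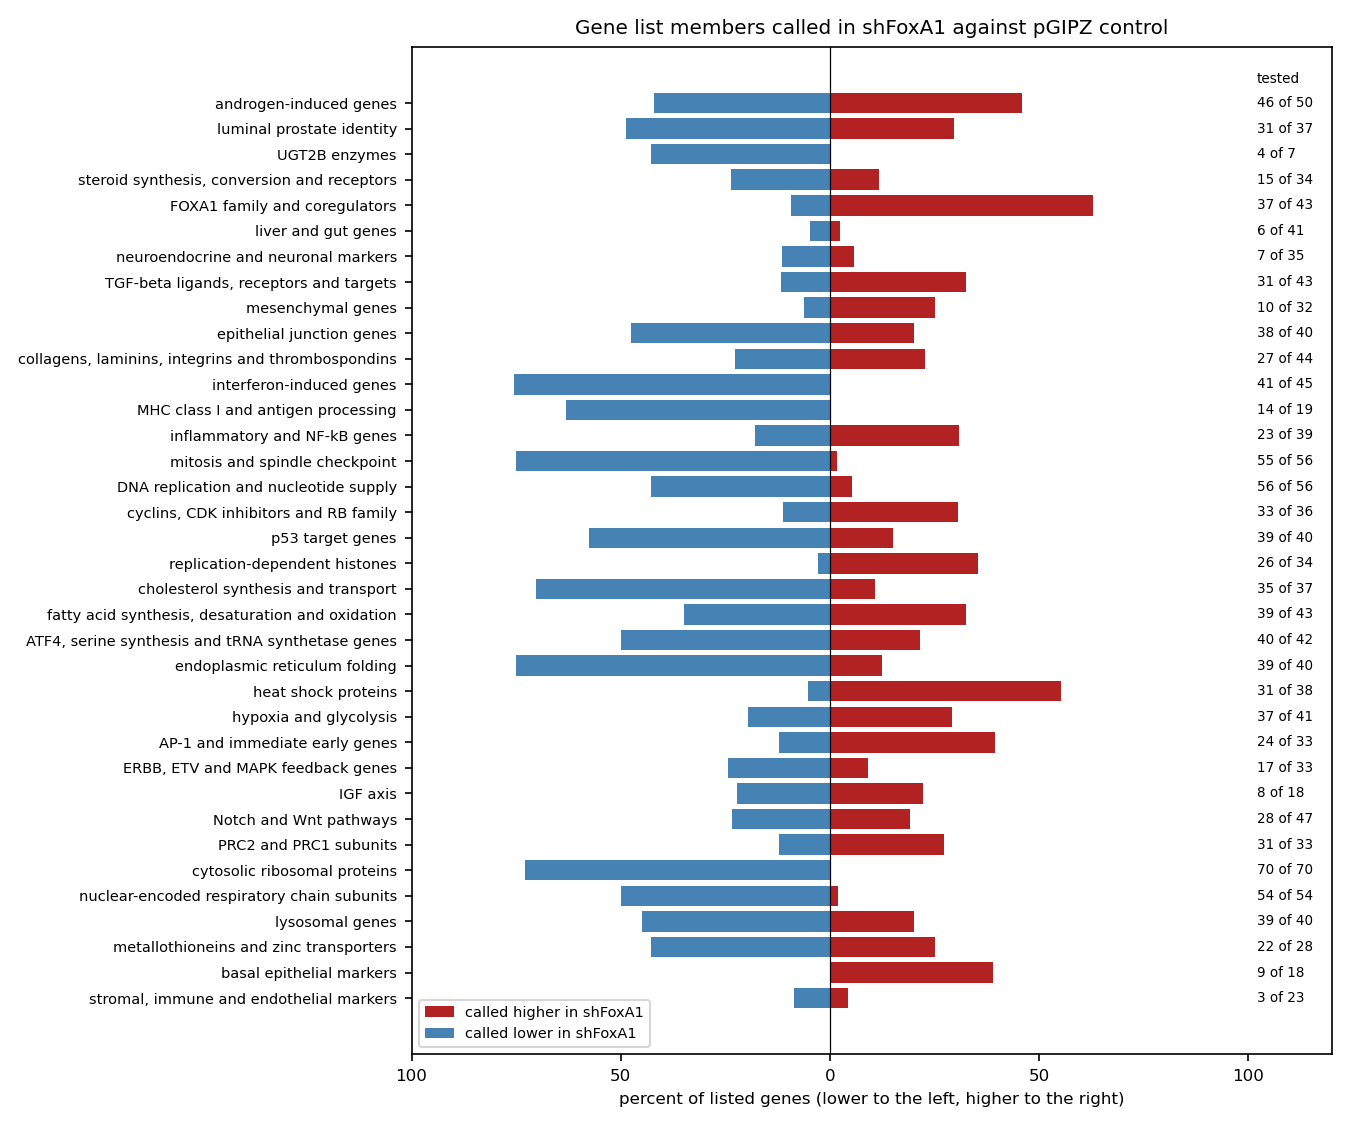
For each gene list, the percent of its listed genes called higher in shFoxA1 (red, to the right) and called lower (blue, to the left) against pGIPZ control, with the numbers tested and listed at the right. Interferon-induced genes, mitosis, endoplasmic reticulum folding and ribosomal protein genes extend far to the left, and FOXA1 family and coregulators extend furthest to the right.

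Growth factor, Notch and Wnt genes moved without a common direction. IGFBP3, which binds IGF in serum, was at 58.8, 58.6 and 61.2 RPKM in shFoxA1 libraries, against 14.3, 17.5 and 15.2 RPKM in pGIPZ libraries (1.87 ± 0.067). GRB10, an adaptor that restrains the insulin receptor, fell (-1.03 ± 0.036), and the IGF list had 4 higher and 4 lower of 8 tested (18 listed, with IRS1 reaching 1 RPKM in shFoxA1 libraries only). The Wnt receptor FZD1 rose (1.56 ± 0.055) and the Notch-family repressor HES4 fell (-1.13 ± 0.076), in a list with 9 higher and 11 lower of 28 tested (47 listed, with DLL1, MAML2 and WNT11 reaching 1 RPKM in 1 group only). ERBB, ETV and MAPK feedback genes had 3 higher and 8 lower of 17 tested (33 listed, with SPRED1 reaching 1 RPKM in 1 group only).

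Markers of other lineages were mostly silent. Of 41 liver and gut genes, 6 were tested, 1 rose and 2 fell, with CEACAM6 reaching 1 RPKM in 1 group only. The number that rose was 0 by limma in each of the fits that left out shFoxA1 library 1, shFoxA1 library 3, pGIPZ library 1 or pGIPZ library 2. CEACAM6, an epithelial adhesion protein, fell (-1.24 ± 0.093) beside TFF1 (-2.38 ± 0.117). Of 35 neuroendocrine and neuronal markers, 7 were tested, 2 rose and 4 fell, with SYP reaching 1 RPKM in 1 group only. The 4 that fell became 2 without shFoxA1 library 1, shFoxA1 library 3 or pGIPZ library 1. The summed level of the list was 333 to 338 RPKM in shFoxA1 libraries and 268 to 285 RPKM in pGIPZ libraries. SYT4, a synaptotagmin, made up most of that sum, with 264, 262 and 268 RPKM in shFoxA1 libraries against 187, 173 and 175 RPKM in pGIPZ libraries (0.57 ± 0.029). CHGA and INSM1, which define neuroendocrine cells, were at most 0.101 and 0.0771 RPKM. Of 23 stromal, immune and endothelial markers, 19 were under 1 RPKM in all 6 libraries, VWF reached 1 RPKM in 1 group only, and PTPRC, HBB and HBA1 were at 0 throughout. Their summed level was 38.4 to 41.5 RPKM in shFoxA1 libraries and 20.4 to 22.8 RPKM in pGIPZ libraries. CD68, a lysosomal protein of macrophages that other cells also express, carried most of it, with 34.7, 34.2 and 32.1 RPKM in shFoxA1 libraries against 14.3, 11.7 and 13.7 RPKM in pGIPZ libraries (1.29 ± 0.079).

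The pLKO experiment knocked FOXA1 down in the same line with its own controls, and its FPKM values were scaled separately, so only fold changes within each table are set side by side and their difference was not tested. The log2 fold change of FOXA1 was -0.67 in the pGIPZ experiment and -0.96 in the pLKO experiment. Of 12115 genes tested in the pLKO experiment, 25.8% were called higher and 45.6% lower in shFOXA1, with a median log2 fold change of -0.15. Of the 245 genes at least 2-fold higher in the pGIPZ experiment, 197 were tested in the pLKO experiment, of which 159 were called higher and 16 lower. The 101 genes at least 2-fold higher in both were 41.2% of the pGIPZ set and 19.0% of the 532 of the pLKO set. Of the 113 genes at least 2-fold lower, 90 were tested there, of which 58 were called lower and 17 higher. The 36 genes at least 2-fold lower in both were 31.9% of the pGIPZ set and 3.25% of the 1109 of the pLKO set.

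Of the 15 genes with the highest fold changes, TGFB3, RGS4, WNT11 and SNAI2 were not tested in the pLKO experiment. S1PR3 was at 4.83 in the pGIPZ experiment and 1.57 in the pLKO experiment, and in the same order SAA1 was at 4.15 and 1.08 and KRT16 at 4.06 and 2.17. S100P was at -2.79 in the pGIPZ experiment and -0.40 in the pLKO experiment. THBS1 rose in both, by 2.94 in the pGIPZ experiment and 3.58 in the pLKO experiment. In the same order, IRX3 rose by 3.34 and 3.29, NPPC by 3.12 and 3.33, and SGK1 by 3.22 and 2.51. SLC45A3 fell in both, with -1.79 in the pGIPZ experiment and -4.41 in the pLKO experiment, as did DDC (-1.82 and -3.80) and RLN1 (-2.51 and -2.68). UGT2B15, an enzyme of androgen inactivation, had -0.46 in the pGIPZ experiment and -3.94 in the pLKO experiment. Mitosis genes had a median of -0.28 in the pGIPZ experiment and -2.97 in the pLKO experiment, where 55 of 56 were called lower. Interferon-induced genes had a median of -0.57 over the 41 tested in the pGIPZ experiment. The 30 tested in the pLKO experiment had a median of 0.13, with 11 called higher and 7 lower. The medians thus cover different sets of genes. RSAD2, IFIT2 and IFIT3 were not tested there, with means of 0.0877, 0.509 and 0.247 FPKM in pLKO controls. At such levels a fall could hardly show. p53 targets had 23 lower and 6 higher in the pGIPZ experiment, and 7 lower and 22 higher in the pLKO experiment, where CDKN1A changed by 2.60.

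**Figure D5:**
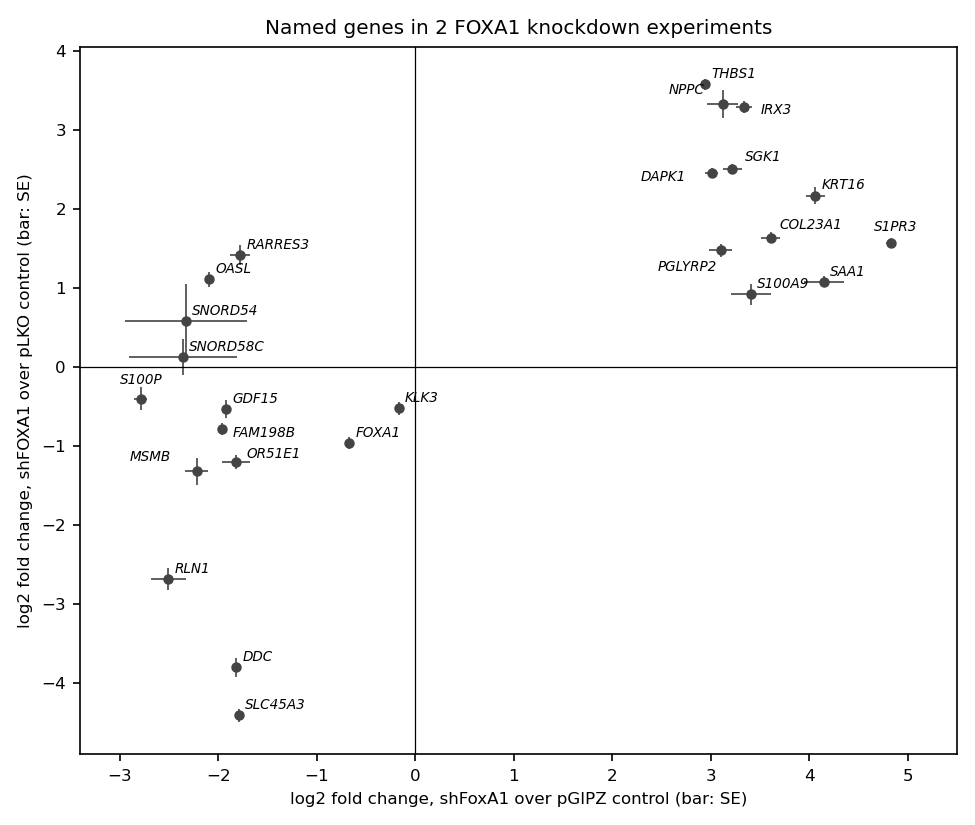
Log2 fold changes of FOXA1, KLK3 and the named genes with the largest rises and largest falls, where tested in both experiments. The horizontal axis shows shFoxA1 over pGIPZ control and the vertical axis shFOXA1 over pLKO control, with bars for the SE. Other named genes are not plotted. Some of them changed in opposite directions, such as CLDN4 (-0.78 and 1.28) and NDRG1 (1.81 and -0.22), with the pGIPZ experiment first. Rising genes such as THBS1 (2.94 and 3.58) lie in the upper right, falling ones such as DDC (-1.82 and -3.80) in the lower left, and OASL (-2.09 and 1.11) and RARRES3 (-1.78 and 1.42) in the upper left with the small nucleolar RNAs. OASL averaged only 0.468 FPKM in pLKO controls.

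In the shFoxA1 + WT libraries, which carried wild-type FOXA1 beside the shRNA, FOXA1 message was at 152 ± 0.899 RPKM, against 82.5 ± 1.87 RPKM in shFoxA1 libraries. The comparison of shFoxA1 + WT with shFoxA1 uses the same shFoxA1 libraries as the knockdown comparison, so its values are given beside it and not as a second test. Of the 12097 genes, 36.7% were called higher and 19.7% lower in shFoxA1 + WT than in shFoxA1. S1PR3 was at 19.7 ± 1.20 RPKM in shFoxA1 + WT libraries and 115.9 ± 1.82 RPKM in shFoxA1 libraries, beside 3.11 ± 0.271 RPKM in pGIPZ libraries. FN1 was at 76.3 ± 2.76 RPKM in shFoxA1 + WT libraries and 359 ± 3.29 RPKM in shFoxA1 libraries, beside 67.5 ± 1.60 RPKM in pGIPZ libraries. SLC45A3 was at 164 ± 3.24 RPKM in shFoxA1 + WT libraries and 43.5 ± 1.72 RPKM in shFoxA1 libraries, beside 153 ± 4.00 RPKM in pGIPZ libraries. For these genes the level with wild-type FOXA1 was nearer to the control than the knockdown level was. DDC and UGT2B11 instead went well past the control. DDC averaged 35.4 RPKM in shFoxA1 + WT libraries and 3.62 RPKM in shFoxA1 libraries, beside 15.3 RPKM in pGIPZ libraries. UGT2B11 averaged 80.5 RPKM in shFoxA1 + WT libraries and 4.99 RPKM in shFoxA1 libraries, beside 8.13 RPKM in pGIPZ libraries.

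S100P and OASL were lower still with wild-type FOXA1, and GDF15 moved only part of the way to the control. S100P was at 30.8 ± 1.62 RPKM in shFoxA1 + WT libraries and 40.0 ± 1.79 RPKM in shFoxA1 libraries, beside 283 ± 16.6 RPKM in pGIPZ libraries. GDF15 was at 852 ± 5.80 RPKM in shFoxA1 + WT libraries and 659 ± 8.50 RPKM in shFoxA1 libraries, beside 2505 ± 41.6 RPKM in pGIPZ libraries. OASL was at 30.5 ± 0.901 RPKM in shFoxA1 + WT libraries and 36.7 ± 1.59 RPKM in shFoxA1 libraries, beside 159 ± 4.79 RPKM in pGIPZ libraries. Of the 41 tested interferon-induced genes, 33 were lower and 2 higher in shFoxA1 + WT than in shFoxA1, with a median of -0.57, and B2M was at 100.2 ± 1.90 RPKM in shFoxA1 + WT libraries. The mean level of RSAD2, OASL, IFIT1, IFIT2, IFIT3, ISG15, BST2 and DDX58 was lowest with wild-type FOXA1 and highest in the pGIPZ control. HERC5 differed from them, at 6.56 RPKM in shFoxA1 + WT libraries and 3.82 RPKM in shFoxA1 libraries, beside 9.05 RPKM in pGIPZ libraries. KLK3 was also lowest there, at 875 ± 13.2 RPKM in shFoxA1 + WT libraries and 1279 ± 12.5 RPKM in shFoxA1 libraries, beside 1436 ± 8.09 RPKM in pGIPZ libraries.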

How the data were processed

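RNA was sequenced from LNCaP cells on an Illumina HiSeq instrument, per the labels' protocols. The authors deposited RPKM values for the pGIPZ experiment and FPKM values for the pLKO experiment, and the submitters' processing notes name STAR and hg38. Both units divide a gene's reads by gene length and library total. The STAR version, the counter and the annotation are not given here. The deposited table listed 26475 symbols, and 32 of them lacked values. No columns were identical (0 pairs) and none was left unused (0). Read totals are unknown, so no counting interval could be given.

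Values were taken as log2(RPKM + 1), with a pseudocount of 1, and genes with at least 1 RPKM in at least 3 of the 6 libraries were kept. limma 3.58.1 (R 4.3.3) was fitted to all 12 libraries of the pGIPZ experiment with a term per group (8 residual degrees of freedom) and an intensity trend. Tests were two-sided, adjusted by Benjamini-Hochberg over 12097 genes and called under 0.05. With 3 libraries in each group, the smallest p of an exact permutation test is 0.1. The pLKO experiment had its own fit on log2(FPKM + 1) over its own 12 libraries. The fit was tested on simulated data. Alternatives were a pseudocount of 0.1, no filter or a filter of 5, median-ratio scaling, a fit of 6 libraries, no trend, a replicate block with and without scaling, and leaving out each library.

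Named genes were FOXA1 and KLK3, the 15 largest rises and 15 largest falls among called genes that had a mean of at least 1 RPKM in either group and no overlap, and up to 4 called members with the largest change from each of 36 gene lists. Markers of cell types and a few genes stated as such were added, and some genes that meet the rule are not reported here. The genes, the comparison and the lists were chosen with earlier results of these data known. Gene positions and promoters are from RefSeq, GRCh38.p14. Python 3.11.15, NumPy 2.4.6, pandas 2.3.3 and matplotlib 3.10.9 did the remaining steps.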

Additional observations from a re-analysis of the deposited data

Results flagged for a closer look

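In 13 named genes all 3 shFoxA1 libraries lay on one side of their pGIPZ controls and all 3 shFOXA1 libraries on the other side of their pLKO controls, with a call in both experiments. The difference between the experiments was not tested for any of them. Values are log2 fold changes, each on the scale of its own table. The median over all genes tested was 0.00 in the pGIPZ experiment and -0.15 in the pLKO experiment, where 45.6% of genes were called lower. Small falls in the pLKO experiment are to be read against that median.

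The antiviral gene OASL was at -2.09 in the pGIPZ experiment and 1.11 in the pLKO experiment, and the retinoid-induced gene RARRES3 at -1.78 and 1.42. OASL was low in the pLKO experiment, at 0.445 to 0.481 FPKM in pLKO controls and 2.11 to 2.22 FPKM in shFOXA1 libraries. HLA-B, an MHC class I heavy chain, was at -0.79 in the pGIPZ experiment and 0.21 in the pLKO experiment. The tight junction genes CLDN4 and CLDN3 were at -0.78 and -0.67 in the pGIPZ experiment, and at 1.28 and 0.74 in the pLKO experiment. DUSP4, a MAP kinase phosphatase, was at -0.56 in the pGIPZ experiment and 1.25 in the pLKO experiment, and the polycomb subunit PCGF2 at -0.33 and 0.26.

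Other genes were higher in the pGIPZ experiment and lower in the pLKO experiment. NDRG1, a gene of the hypoxia list, was at 1.81 and -0.22 in this order, and BHLHE40, a factor of the same list, at 1.23 and -0.88. ACTA2, smooth muscle actin, was at 1.46 in the pGIPZ experiment and -0.27 in the pLKO experiment. SHMT1, of serine metabolism, was at 1.25 in the pGIPZ experiment and -0.60 in the pLKO experiment. The metallothionein MT1F was at 0.93 in the pGIPZ experiment and -0.33 in the pLKO experiment, and MT1X at 0.72 and -1.63.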

How the results depend on the processing

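No fold change of the 153 named genes changed direction under the alternatives run. Other genes given were refitted too, but their results under the alternatives were not summarised. Genes called numbered 6170, and 5538 to 5744 when 1 library was left out. With a pseudocount of 0.1, 578 genes were called and at least 2-fold changed, against 358 with a pseudocount of 1, and 215 against 113 were at least 2-fold lower, since low genes are compressed less. With a filter of 5 RPKM, which leaves fewer genes to test, the collagen and laminin list had 6 members called lower in place of 10. Median-ratio scaling gave 3031 higher and 3200 lower, so that lower calls outnumbered higher ones, against 3143 higher and 3027 lower without it. Of the named genes, 2 lost their calls, among them RPS10 (no filter, -0.47, adjusted p = 0.0571), both also in some leave-one-out fits; 16 named genes fell below the filter of 5. Libraries of the same number share only that number: the correlations of their deviations from group means were 0.0352, -0.00592 and 0.0297. A replicate block gave 6002 calls, 3059 higher and 2943 lower, and changed no call of a named gene. Read totals are unknown, and library number limits the precision.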
